A study of Mus musculus with 2 samples.

Results

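Retinoic acid metabolism and signaling was followed through 8 genes in single cells of the mouse lung. The genes were Aldh1a1, Aldh1a2 and Rdh10, which make retinoic acid or its precursor, Dhrs3, which turns the precursor back, Cyp26b1, which breaks retinoic acid down, and the receptor genes Rara, Rarb and Rxra. They are 8 of the 32286 features counted. They were chosen by one measured value, the higher level of Cyp26b1 in endothelial cells after treatment, together with the known steps of the pathway, so that contrast is given here as a description.

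Single-cell RNA sequencing was available as 2 libraries, made from lungs of BALB/c females with an age listed as 9 to 10 weeks. The paper's account of the injections would make the mice slightly older than that. One library came from mice that received control media (CM) intravenously over 3 weeks and the other from mice that received tumor conditioned media (TCM) over the same time. TCM was medium in which 4T1 mouse breast tumors had been kept, pooled from several tumors, and CM was the same medium kept without a tumor. The injected mice carried no tumor themselves, so the design models the lung before metastasis. Each group had 1 library and the number of mice behind a library was not given in the sources used here, so the spread between animals is unknown and no test was possible. All intervals are 95% intervals and speak to the counting of molecules alone.

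UMIs (unique molecular identifiers, each standing for 1 captured RNA molecule) numbered 31944151 in CM and 36648719 in TCM. Filters left 7988 cells in CM and 7707 in TCM, whose median depth was 2085 and 2346 UMIs, and 93 cell barcodes were kept in both libraries. Without them the endothelial-like log2 ratio of Cyp26b1 was 3.39 in place of 3.41. Cells were named by marker genes, and 5784 CM cells (72.4%) and 6214 TCM cells (80.6%) were placed in a class. Classes carry the ending "-like". The endothelial-like class held 1771 CM and 1714 TCM cells with all 8 of its markers detected, and by the marker lists used no class had more markers of another class than of its own among its 10 leading genes. Hemoglobin genes, which are not on those lists, made up 3 of the 10 leading genes of alveolar fibroblast-like cells against 1 own marker, and immunoglobulin genes were among those of aerocyte capillary endothelial-like cells. The classes differed in size between the libraries, with 240 CM and 1436 TCM neutrophil-like cells.

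Retinoic acid is made from vitamin A in steps. Retinol dehydrogenases such as Rdh10 oxidize retinol to retinal, retinaldehyde dehydrogenases such as Aldh1a1 and Aldh1a2 oxidize retinal to retinoic acid, and Dhrs3 reduces retinal back to retinol. Cyp26 enzymes oxidize retinoic acid to products that are cleared, which limits its reach to nearby cells. In the nucleus retinoic acid binds retinoic acid receptors such as Rara and Rarb, which act as pairs with retinoid X receptors such as Rxra. In the lung the pathway is best known for its part in the outgrowth of the lung bud and the forming of alveoli.

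The promoters of the members differ in the letters that such receptor pairs are known to recognise, and these sequences are shown first because Rarb, and not Cyp26b1, carries the textbook element in its RefSeq window. Retinoic acid receptor pairs bind direct repeats of a half-site, here searched on both strands in RefSeq windows (GRCm38.p6) that run from 250 bases before to 50 bases after a gene's start. The half-site was taken as AGGTCA or, with the first base changed, GGGTCA. The forms with AGTTCA and those written GGTTCA were taken as well. Windows were found for 7 of the 8 members, 14 windows in all. Repeats with 5 bases between the half-sites were found in 32 of 32851 windows (0.0974%) and repeats with 2 bases between them in 88 (0.268%). Of the 14 windows, 1 held a repeat with 5 bases, that of Rarb, and 0 held a repeat with 2 bases. Among the 76 other genes of a wider retinoic acid list, 54 had a window, and the repeat with 5 bases was found for 1 gene, Cyp26a1, a close relative of Cyp26b1. Capitals mark the half-sites in the first 2 sequences, each given 5′ to 3′ on the strand of the gene, and the letters TATAAA in the sequence of Cyp26b1, which is the stretch of its window that lies before the annotated exons.
Rarb, chr14:16575507-16575535, minus strand: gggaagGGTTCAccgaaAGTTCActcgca
Cyp26a1, chr19:37697770-37697798, plus strand: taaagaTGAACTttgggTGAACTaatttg
Cyp26b1, chr6:84593909-84594060, minus strand: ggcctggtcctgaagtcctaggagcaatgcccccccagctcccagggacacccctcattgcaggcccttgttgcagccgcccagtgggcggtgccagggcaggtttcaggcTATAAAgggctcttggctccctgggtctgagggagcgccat

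The Rarb repeat ended 36 bases before the RefSeq start of that window, which is an internal start, 243680 bases from the 5′ end of the gene as annotated. The printed stretch lies over an exon of 2 of the 7 Rarb transcripts in GENCODE vM21. The Cyp26a1 repeat reads on the opposite strand of its gene and ended 15 bases before the start. The Cyp26b1 window held no half-site of these 4, while windows with at least 1 half-site made up 43.7% of all windows. The letters TATAAA, which match the core of a TATA box, were found in the Cyp26b1 window alone among the members and in 13.6% of all windows. A match in letters does not show that a factor binds there, and the absence of a match covers this window only.

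The first question was which cells hold the RNA for making retinoic acid. Aldh1a1 was found mainly in fibroblast-like and ciliated-like cells, Aldh1a2 in mesothelial-like cells, and Rdh10 at low levels in many classes. Levels are given as UMIs of a gene per 100000 UMIs of the class, and the genes are not compared with each other because genes differ in length and capture. The plot of levels by class shows each member in both libraries.

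**Figure D1:**
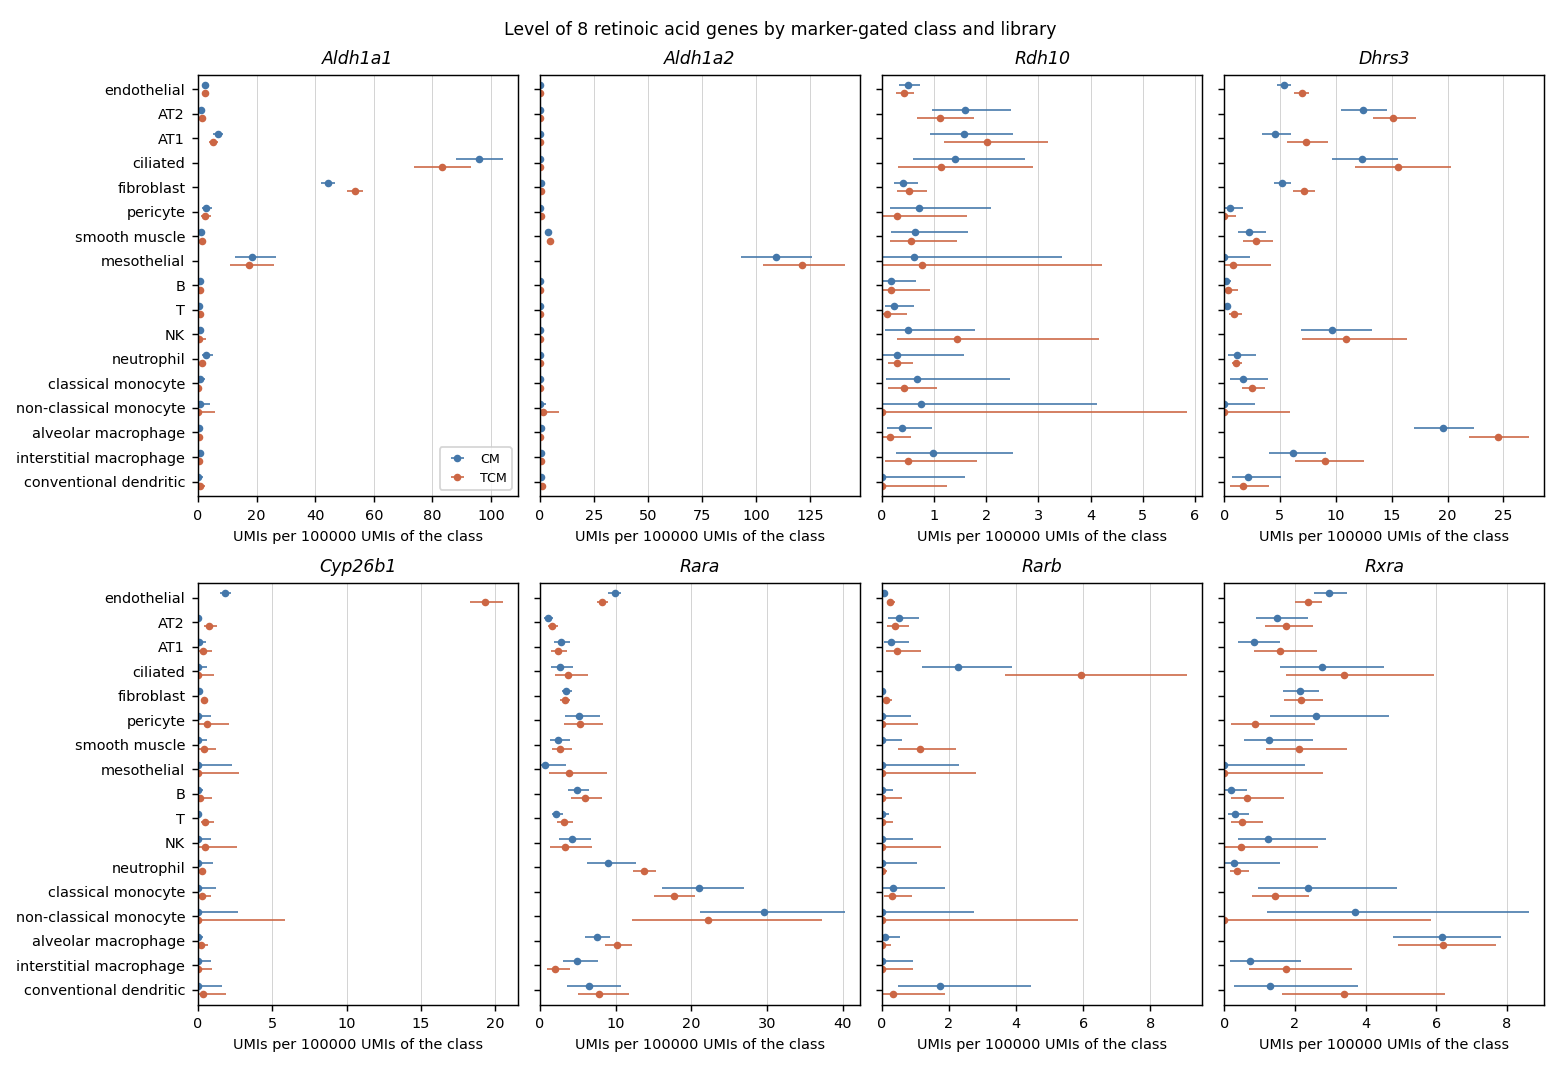
Level of the 8 members (UMIs per 100000 UMIs of a class, horizontal axis, a linear scale of its own for each gene) for CM and TCM, by class (vertical axis, each class of 18 or more cells in CM and in TCM). Points are the summed level of 1 library and bars exact 95% Poisson intervals. Aldh1a2 stands out in mesothelial-like cells, with 109 in CM and 121 in TCM, and Cyp26b1 in TCM endothelial-like cells, with 19.3 against 1.82 in CM.

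Aldh1a1 (chr19:20492715-20643465, plus strand, GRCm38) gave 1515 UMIs in CM and 1546 in TCM fibroblast-like cells, 62.1% and 67% of all Aldh1a1 UMIs in named cells. Its level there was 44.3 in CM (interval 42.1 to 46.6) against 53.6 in TCM (50.9 to 56.3), a log2 ratio of TCM over CM of 0.27 (0.17 to 0.38). The RNA lay in alveolar fibroblast-like cells, at 50.6 in CM and 59.9 in TCM, while adventitial fibroblast-like cells, those around vessels and airways, had 7.94 and 7.17. After thinning each cell to 1000 UMIs, 32.3% of CM fibroblast-like cells (28.9 to 35.9) and 39% of TCM fibroblast-like cells (35.1 to 43.1) held an Aldh1a1 UMI, against 0.87% and 0.452% of B-like cells.

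Ciliated-like cells, of which there were 46 in CM and 40 in TCM, had Aldh1a1 levels of 95.8 (88 to 104) and 83.1 (73.8 to 93.1). In club-like cells the levels were 99 and 87.7, from 3 and 8 cells only. AT1-like cells (alveolar type I, the flat gas-exchange epithelium) had 6.72 in CM and 5.04 in TCM, and endothelial-like cells 2.3 and 2.53, with a log2 ratio of 0.14 (-0.21 to 0.49). Free RNA, read from droplets of at most 50 UMIs, was expected to give a part of these endothelial-like Aldh1a1 UMIs. It was 30.2 of 124 UMIs in CM and 46 of 159 in TCM. The neighbouring gene Aldh1a7 is a close relative, and in AT2-like cells (alveolar type II, the surfactant-secreting epithelium) it had 64 and 108 UMIs where Aldh1a1 had 14 and 25. Reads of genes this alike can be hard to assign to the right gene, so the AT2-like values of Aldh1a1 are uncertain.

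Aldh1a2 (chr9:71215789-71296243, plus strand) was concentrated in mesothelial-like cells, which line the lung surface. The 18 CM cells gave 175 UMIs and the 21 TCM cells 160, which was 77.4% (71.4 to 82.7) and 71.7% (65.4 to 77.6) of all Aldh1a2 UMIs in named cells. The levels were 109 (93.1 to 126) and 121 (103 to 141), with intervals that overlap. These classes were too small for a ratio, which was taken only with at least 50 cells in each library and at least 20 UMIs over both.

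Smaller amounts of Aldh1a2 were present in smooth muscle-like cells, 3.68 in CM and 4.5 in TCM, with a log2 ratio of 0.29 (-0.53 to 1.13). Adventitial fibroblast-like cells had 4.67 and 3.94. Endothelial-like cells had 0 Aldh1a2 UMIs in CM and 1 in TCM, out of 5379859 and 6277848 UMIs, and 0 of 1371 CM and 0 of 1444 TCM endothelial-like cells held one after thinning. Beyond that UMI Aldh1a2 was not detected in the class where Cyp26b1 was highest.

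Rdh10 (chr1:16105774-16133734, plus strand), whose enzyme carries out the first oxidation, gave 174 UMIs in all kept CM cells and 154 in all kept TCM cells. Its UMIs were spread over the classes, with 27 and 26 in endothelial-like, 19 and 18 in AT2-like and 17 and 18 in AT1-like cells. The log2 ratio was -0.28 (-1.11 to 0.56) in endothelial-like cells and 0.36 (-0.68 to 1.41) in AT1-like cells. At this depth a difference under about 2-fold was not detectable for Rdh10 in any class.

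Dhrs3 (chr4:144892827-144928209, plus strand), the retinal reductase, was highest in alveolar macrophage-like cells and was higher in TCM than in CM in several classes, by less than 2-fold in each. In alveolar macrophage-like cells its level was 19.6 in CM (17 to 22.4) against 24.5 in TCM (21.9 to 27.3), a log2 ratio of 0.32 (0.07 to 0.58). In endothelial-like cells it was 5.35 (4.75 to 6.01) and 6.93 (6.29 to 7.61), a log2 ratio of 0.37 (0.15 to 0.59). Within the endothelial-like class the difference was larger in aerocyte capillary cells, the capillary type specialised for gas exchange, at 9.69 and 14 (log2 ratio 0.53, 0.10 to 0.98), than in general capillary cells, at 4.95 and 5.47 (0.14, -0.15 to 0.43), although these intervals overlap.

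Fibroblast-like cells had Dhrs3 levels of 5.18 and 7.1, a log2 ratio of 0.46 (0.16 to 0.75), and AT1-like cells 4.51 and 7.28, a log2 ratio of 0.69 (0.13 to 1.25). In AT2-like cells the levels were 12.4 and 15.1, and the interval of the log2 ratio of 0.28 reached from -0.02 to 0.59. NK-like cells (natural killer) had Dhrs3 levels of 9.65 and 10.9, while T-like cells had 4 and 10 UMIs in all and B-like cells 2 and 2. Dhrs3 was also higher outside cells in TCM: droplets of at most 50 UMIs, which hold free RNA, had 2.44 in CM (1.42 to 3.91) and 4.64 in TCM (2.83 to 7.17), with intervals that overlap. In endothelial-like cells 7.14 of 288 CM UMIs and 24.9 of 435 TCM UMIs were expected from it. With free RNA subtracted the log2 ratio was 0.37 in endothelial-like, 0.46 in fibroblast-like, 0.70 in AT1-like and 0.35 in alveolar macrophage-like cells.

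Cyp26b1 (chr6:84571414-84593908, minus strand), the enzyme gene for breakdown, lay almost wholly in endothelial-like cells, and it had a higher level in TCM in each endothelial-like subclass with enough cells. Endothelial-like cells held 98 of 102 Cyp26b1 UMIs in named CM cells (96.1%, 90.3 to 98.9) and 1214 of 1266 in named TCM cells (95.9%, 94.6 to 96.9). The UMIs came from 62 CM and 513 TCM cells. The level was 1.82 in CM (1.48 to 2.22) and 19.3 in TCM (18.3 to 20.5), 10.6-fold higher, with a log2 ratio of 3.41 (3.11 to 3.72). Of the 6 members with a ratio in this class Cyp26b1 alone was at least 2-fold higher, as were 1.35% of the 11898 genes with a ratio, among which it stood in place 6 from the highest. Aldh1a2 and Rarb had too few UMIs for a ratio there. This contrast chose the members, so nothing is read from that count.

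The remaining Cyp26b1 UMIs in named cells were few. AT2-like cells had 0 in CM and 12 in TCM, fibroblast-like cells 3 and 11, T-like cells 0 and 6 and neutrophil-like cells 0 and 6. After thinning, 1.46% of CM endothelial-like cells (20 of 1371, 0.893 to 2.24) and 16.3% of TCM endothelial-like cells (235 of 1444, 14.4 to 18.3) held a Cyp26b1 UMI. Without thinning the shares were 3.5% and 29.9%, at median depths of 2202 and 2867.5 UMIs. The share in T-like cells, taken as background, was 0 of 521 in CM, which allows a share of up to 0.576%, and 3 of 408 in TCM (0.735%, 0.152 to 2.13), at median depths of 2600.0 and 2455 UMIs. In B-like cells it was 0 of 460, which allows up to 0.652%, and 1 of 221 (0.452%), at 1971 and 1860.0 UMIs. The TCM endothelial-like share thus lay far above both of these background shares.

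Among TCM endothelial-like cells with Cyp26b1, 248 held 1 UMI, 106 held 2 and 159 held 3 or more, and 1 cell held 19. In CM, 44 cells held 1 UMI, 11 held 2 and 7 held 3 or more. The subclasses were separated by a further set of markers. General capillary cells carried most of the RNA, at 47 UMIs in 36 of 1102 CM cells and 922 UMIs in 388 of 1147 TCM cells.

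**Figure D2:**
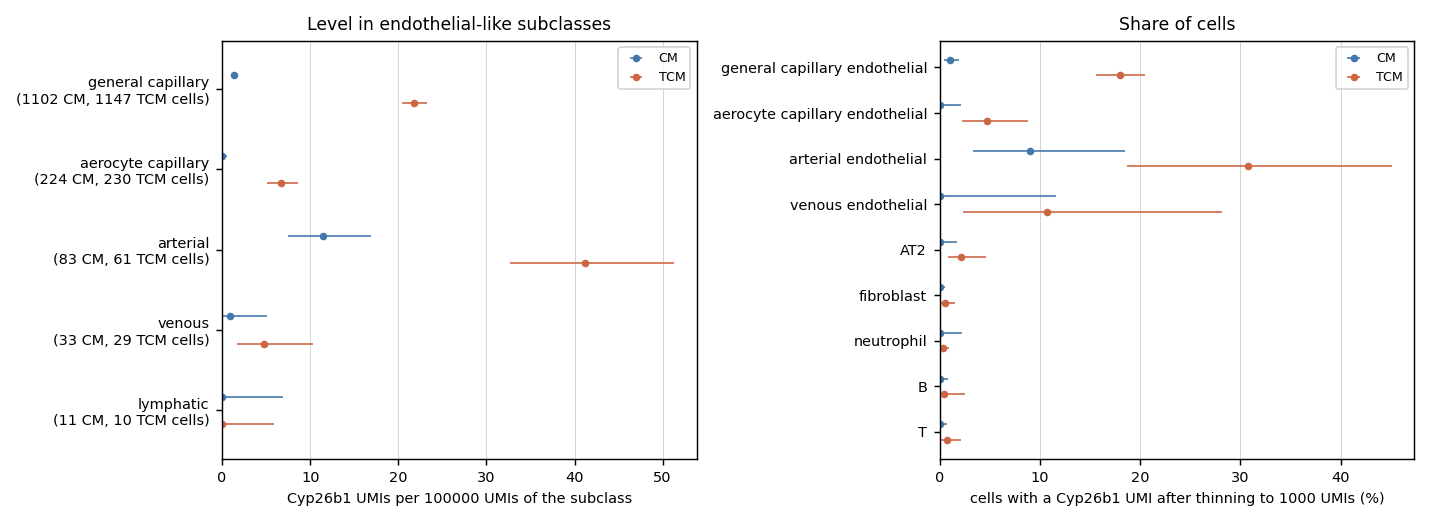
Left, Cyp26b1 level (UMIs per 100000 UMIs of the subclass) in 5 endothelial-like subclasses with the number of cells in each library; right, percent of cells with a Cyp26b1 UMI after thinning to 1000 UMIs, in 4 of these subclasses and in 5 other classes. Points are 1 library each and bars exact 95% intervals (Poisson left, Clopper-Pearson right). The TCM general capillary share was 18% against 1.01% in CM, and arterial cells had the highest level in both libraries, 11.5 and 41.2.

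In general capillary endothelial-like cells the level was 1.33 in CM (0.977 to 1.77) and 21.8 in TCM (20.4 to 23.3), 16.4-fold higher with a log2 ratio of 4.04 (3.61 to 4.49). There it was 1 of 6 members at least 2-fold higher, where 1.47% of all genes with a ratio were. In arterial endothelial-like cells the level was 11.5 (7.53 to 16.9) and 41.2 (32.7 to 51.3), 3.58-fold higher with a log2 ratio of 1.84 (1.18 to 2.54), from 26 UMIs in 14 of 83 CM cells and 80 UMIs in 32 of 61 TCM cells. It was 1 of 2 members with a ratio there, and 4.37% of all genes were at least 2-fold higher. The intervals of the general capillary and the arterial ratios do not overlap. Arterial cells thus had the higher level in CM and the smaller ratio.

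Aerocyte capillary endothelial-like cells held 0 Cyp26b1 UMIs in 224 CM cells and 60 in 22 of 230 TCM cells, a level of 6.68 in TCM (5.1 to 8.6). Set against the floor of 3 counts in CM, the level was at least 15.9-fold higher, as 1 of 4 members with a ratio against 2.31% of all genes. A few cells decided this value, since 10 cells held 80.0% of the UMIs and 1 cell held 19. Without the deepest 5% of cells the bound on the log2 scale was 2.57, and after thinning it was 1.46. Venous endothelial-like cells had 1 UMI in 33 CM cells and 6 in 29 TCM cells, and lymphatic endothelial-like cells 0 in 11 and 0 in 10, which are too few for a ratio.

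Cyp26b1 was also found outside named cells in TCM. Droplets of at most 50 UMIs had a level of 0.287 in CM (0.0348 to 1.04, 2 UMIs) and 6.03 in TCM (3.94 to 8.84, 26 UMIs). The estimate of free RNA was 165 UMIs for a cell of CM and 313 for a cell of TCM, which would give 0.84 of the 98 CM and 32.3 of the 1214 TCM Cyp26b1 UMIs of endothelial-like cells. With the free RNA subtracted the log2 ratio was 3.43.

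**Figure D3:**
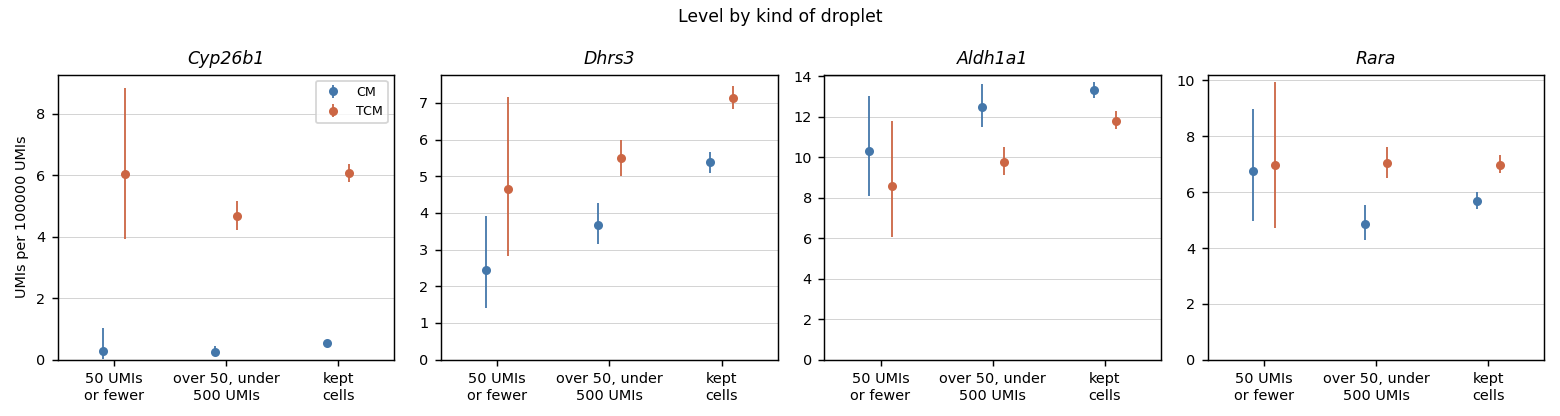
Level of Cyp26b1, Dhrs3, Aldh1a1 and Rara (UMIs per 100000 UMIs, vertical axis, linear) in droplets of at most 50 UMIs, in droplets of more than 50 and fewer than 500 UMIs and in all kept cells, for CM and TCM. Points are 1 library each and bars exact 95% Poisson intervals. Cyp26b1 was higher in TCM in all 3 kinds of droplet, at 6.03 against 0.287 in the smallest.

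The endothelial-like cells of the libraries also differed in traces of other cell types. The 8 defining endothelial markers were detected in both, with log2 ratios between -0.10 (Clec14a) and 0.28 (Esam). The summed level of the 8 classical monocyte markers in endothelial-like cells was 69.5 in CM and 126 in TCM, that of the 8 neutrophil markers 7.7 and 14.2, that of the 8 B cell markers 11.7 and 5.83, and that of the 8 NK cell markers, of which 6 were detected in each library, 11 and 2.18. Cyp26b1 itself was at 0 UMIs in CM and 3 in TCM in classical monocyte-like cells and at 0 and 6 in neutrophil-like cells. The part of these traces in the levels of the other members was not tested.

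The genes whose level across classes was most like that of Cyp26b1 were Inhbb, a subunit gene of activins and inhibins, Apold1, Fam181b, Fam124b and Mmrn2, an endothelial matrix gene. Their Pearson correlations of log2(level + 1) with Cyp26b1 were 0.898, 0.897, 0.895, 0.891 and 0.880 over 32 points, 16 classes in each of 2 libraries, among 11251 genes. The points share libraries and are not independent. Inhbb had 130 UMIs in CM and 265 in TCM endothelial-like cells, a log2 ratio of 0.80 (0.50 to 1.12), while the other 4 genes had log2 ratios between -0.01 and 0.31 there.

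Among the receptor genes, Rara (chr11:98927818-98974942, plus strand) was detected in each class of 18 or more cells, Rxra in fewer UMIs and Rarb in very few. Rara was slightly lower in TCM endothelial-like cells, at 9.85 in CM (9.03 to 10.7) against 8.2 in TCM (7.51 to 8.94), a log2 ratio of -0.26 (-0.44 to -0.09). The general capillary cells had 9.93 and 7.97, a log2 ratio of -0.32 (-0.54 to -0.10), and the aerocyte capillary cells 12.9 and 10.6 (-0.29, -0.72 to 0.14). Endothelial-like cells held 47.8% of the Rara UMIs of named cells in CM and 34.4% in TCM. That share also depends on the sizes of the other classes. Endothelial-like cells gave 530 Rara UMIs in CM and 515 in TCM, and neutrophil-like cells 32 and 340.

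Rara levels were highest in the monocyte-like classes. Non-classical monocyte-like cells, the patrolling type, had 29.6 in 49 CM cells (21.1 to 40.3) and 22.2 in 24 TCM cells (12.1 to 37.3), and classical monocyte-like cells had 21 (16.1 to 26.9) and 17.7 (15.1 to 20.5), with a log2 ratio of -0.25 (-0.68 to 0.19). The intervals of these neighbours overlap within each library. Neutrophil-like cells had 9.02 in CM (6.17 to 12.7) against 13.8 in TCM (12.3 to 15.3), a log2 ratio of 0.61 (0.08 to 1.18). In alveolar macrophage-like cells the levels were 7.47 and 10.2, a log2 ratio of 0.45 (0.04 to 0.87).

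Among the 42 pairs of a member and a first-level class that had a ratio, 2 were 2-fold or more apart, Cyp26b1 in endothelial-like cells and Rara in interstitial macrophage-like cells. Rara had 20 UMIs in 17 of 86 CM cells and 8 UMIs in 5 of 86 TCM cells there, levels of 4.93 (3.01 to 7.61) and 2.01 (0.868 to 3.96), with a log2 ratio of -1.29 (-2.69 to -0.05). It was 1 of 2 members with a ratio, and 2.4% of the 4671 genes with a ratio were at least 2-fold lower. The interval ends close to no difference, and after thinning the log2 ratio was -0.88, which is under 2-fold. These pairs come from 13 of the 24 first-level classes, and over those 13 the share of all genes that did so ran from 1.35% to 8.92% for higher and from 0.712% to 12% for lower values.

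Rarb (chr14:16430839-16819156, minus strand), the receptor gene with the repeat printed above, gave 56 UMIs in all kept CM cells and 93 in all kept TCM cells. The class with the most was the ciliated-like one, with 13 in CM and 21 in TCM, at levels of 2.26 (1.2 to 3.87) and 5.95 (3.68 to 9.1). These levels are more than 2-fold apart with intervals that overlap, and the class had too few cells for a ratio. Endothelial-like cells held 3 UMIs in 3 CM cells and 15 UMIs in 14 TCM cells, levels of 0.0558 (0.0115 to 0.163) and 0.239 (0.134 to 0.394). Smooth muscle-like cells held 0 and 8. The 18 endothelial UMIs fall under the minimum of 20 for a ratio, and after thinning 1 of 1371 CM and 1 of 1444 TCM endothelial-like cells held a Rarb UMI.

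Rxra (chr2:27676440-27762957, plus strand), the partner of the receptors, was highest in alveolar macrophage-like cells, at 6.16 in CM (4.77 to 7.84) against 6.2 in TCM (4.93 to 7.69), a log2 ratio of 0.01 (-0.48 to 0.50). In endothelial-like cells it was at 2.97 and 2.36, a log2 ratio of -0.34 (-0.67 to 0.00). Fibroblast-like cells had 2.14 and 2.18. T-like cells had 5 UMIs in CM and 6 in TCM, and B-like cells 2 and 4.

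The wider retinoic acid list held 84 genes with the members and placed these values in the pathway. It was drawn up with earlier results of these data known. In endothelial-like cells 55 of the 84 had a ratio, of which 2 were at least 2-fold higher and 1 at least 2-fold lower, with a median log2 ratio of 0.04 against 0.00 over all 11898 genes with a ratio. Over all genes with a ratio 1.35% were at least 2-fold higher and 1.68% at least 2-fold lower. The called genes besides Cyp26b1 were Dhrs9, with 4 and 17 UMIs, and Aldh1a7, with 13 and 7, both named after their values were seen. Neutrophil markers, given above, were also higher in TCM endothelial-like cells, and Dhrs9 had levels of 19.7 and 26 in neutrophil-like cells, a pattern whose part in its value was not tested. The relatives of Cyp26b1 were nearly absent, since Cyp26a1 and Cyp26c1, both below 50 UMIs, each had 0 UMIs in CM and 1 in TCM.

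The group for uptake, transport and storage of retinol had 9 of 15 genes with a ratio in endothelial-like cells. Of these 8 were above 0 and 1 below, with a median log2 ratio of 0.44 and none at least 2-fold apart. The subclasses differed, with fewer genes in each. The median was 0.17 in general capillary cells (6 above, 1 below) and -0.09 in aerocyte capillary cells (2 above, 3 below). In arterial cells it was 0.56 (4 above, 1 below). Lipe, a lipase for stored esters, had levels of 8.57 and 14.9 (log2 ratio 0.80, 0.63 to 0.96). Scarb1, a lipoprotein receptor that also takes up carotenoids, had 17.8 and 24.3 (0.45, 0.33 to 0.56).

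The 4 receptor genes with a ratio, out of 6, were all below 0 in endothelial-like cells, with Rarg at 5.82 and 5.7 (-0.03, -0.25 to 0.19) and Rxrb at 3.01 and 2.98 (-0.02, -0.33 to 0.30) beside Rara and Rxra. In general capillary cells 2 of the 4 were above 0 and 2 below, with Rarg at 0.03 (-0.25 to 0.31) and Rxrb at 0.06 (-0.31 to 0.43). Of the 10 coregulator genes 7 were above 0 and 3 below, with a median of 0.05. Ep300, a coactivator with acetyltransferase activity, had 3.33 and 4.44 (0.42, 0.14 to 0.70).

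Known target genes of retinoic acid did not move one way in endothelial-like cells. Of 30 such genes 19 had a ratio, 9 above 0 and 10 below, with a median log2 ratio of -0.04. This count of signs does not weigh size, and several of the intervals held 0. Cyp26b1, itself on that list, was the 1 gene at least 2-fold higher. The members Dhrs3 (0.37, 0.15 to 0.59) and Rarb are on the list as well, Rarb with too few UMIs for a ratio. Whether these genes responded to retinoic acid was not tested. Tgm2, a transglutaminase, had 16.6 and 24.8 (0.58, 0.46 to 0.70), and Cd38, an NAD-consuming enzyme, 5.78 and 9 (0.64, 0.44 to 0.84). Hoxa5 had 8.75 and 7.87 (-0.15, -0.34 to 0.03), Hoxb5 10.9 and 10.0 (-0.12, -0.28 to 0.05) and Meis2 8.16 and 6.87 (-0.25, -0.44 to -0.05), all genes of developmental transcription factors.

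**Figure D4:**
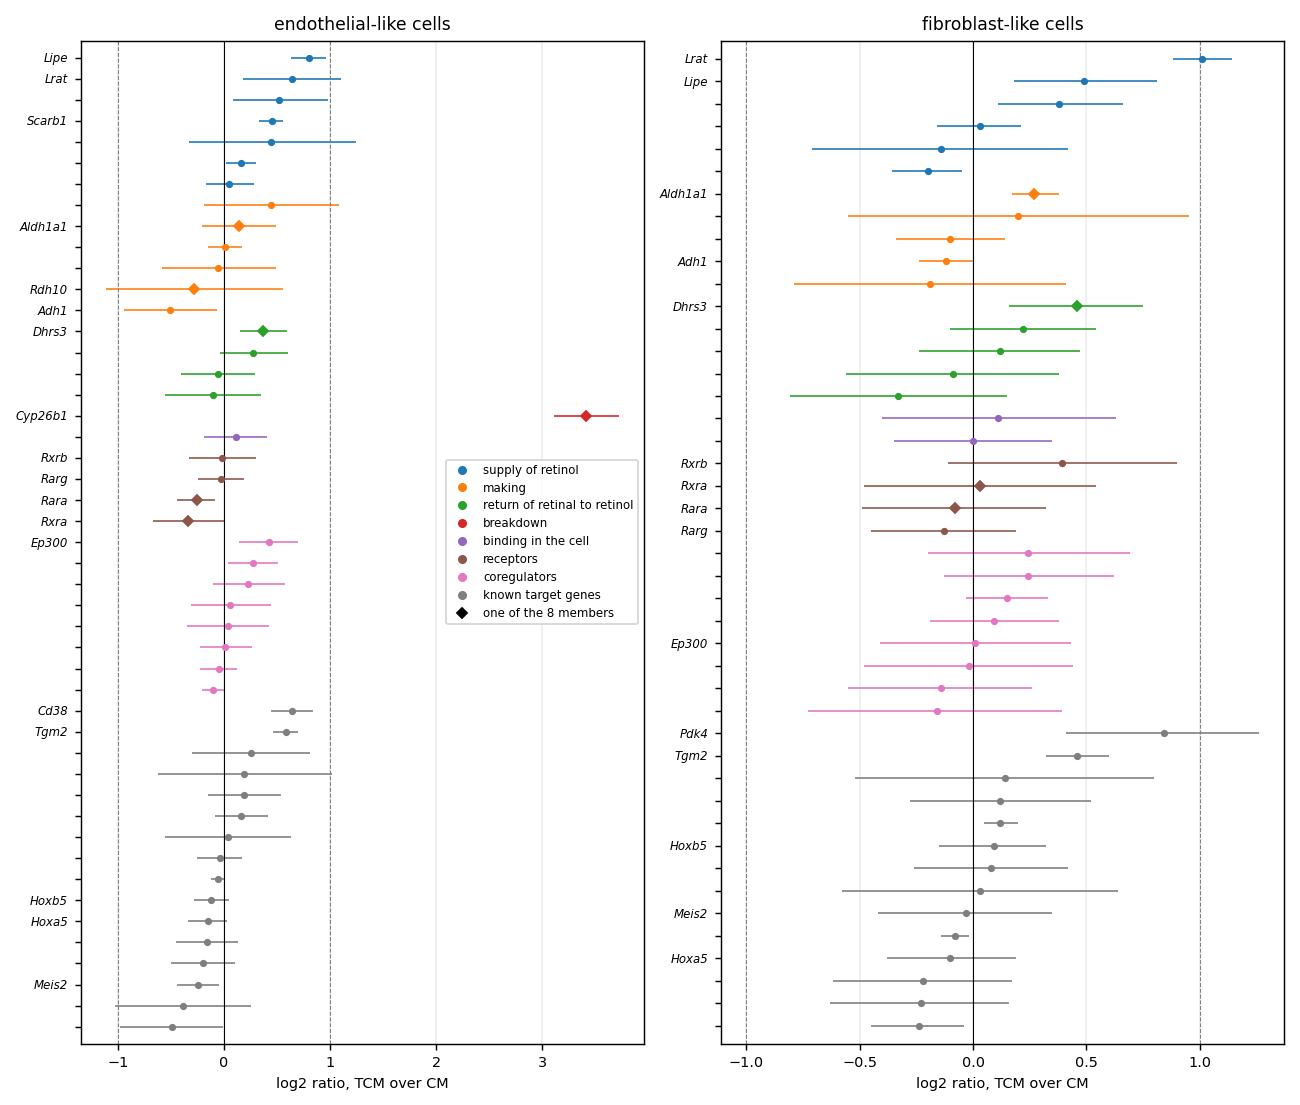
Log2 ratio of TCM over CM (horizontal axis) of genes of the retinoic acid list with at least 50 UMIs over both libraries (vertical axis, 1 gene per line, with the genes described in the text labelled), in endothelial-like cells (left) and fibroblast-like cells (right), colored by role, with diamonds for the members. Bars are 95% conditional binomial intervals and dashed lines mark 2-fold. Cyp26b1 stands apart at 3.41 on the left and Lrat at 1.01 on the right, and the other genes shown lie within 2-fold.

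In fibroblast-like cells 55 of the 84 genes had a ratio, with a median of 0.03 against -0.02 over all 10989 genes. Lrat, the enzyme gene that stores retinol as esters, was at least 2-fold higher, as were 1.41% of all genes. It had 783 UMIs in CM and 1334 in TCM, levels of 22.9 and 46.2, 2.02-fold apart with a log2 ratio of 1.01 (0.88 to 1.14), and it stood in place 149 from the highest. Rxrg, a retinoid X receptor gene with 37 and 9 UMIs, was the 1 gene at least 2-fold lower (-1.80), where 1.78% of all genes were, and was named after its value was seen. Of the 6 members with a ratio there, 0 differed by 2-fold or more.

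Most of the Lrat UMIs lay in alveolar fibroblast-like cells, with levels of 25.7 and 51.5 (interval of the log2 ratio 0.87 to 1.14), while adventitial fibroblast-like cells had -0.09 (-0.93 to 0.71) from 36 and 22 UMIs. Hemoglobin UMIs were found in 45 of 785 CM and 8 of 568 TCM alveolar fibroblast-like cells, and their part in the Lrat and Aldh1a1 values was not tested. Lrat was also the gene most like Aldh1a1 in its level across classes and libraries, with a correlation of 0.951 over the same 32 points. The retinol dehydrogenase gene Adh1 had levels of 39.8 and 36.6 in fibroblast-like cells (-0.12, -0.24 to 0.00). Pdk4, a kinase gene on the target list, had 2.31 and 4.12 (0.84, 0.41 to 1.26), and Tgm2 22.8 and 31.5 (0.46, 0.32 to 0.60). The target list as a whole did not move one way in fibroblast-like cells. Of its 30 genes 18 had a ratio there, 11 above 0 and 7 below. The median log2 ratio was 0.06, and 0 of them were 2-fold or more apart.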

How the data were processed

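RNA of single cells was measured in 1 library per group, grouped by the treatment label. The authors used a droplet kit that reads 5′ ends, mapped reads with Cell Ranger (version 4 in the file header) to mm10 (GRCm38.p6), and deposited raw UMI counts per gene and barcode, with no normalization. Droplets with at least 500 UMIs, at least 200 genes and at most 10% mitochondrial UMIs were kept, the limits the study describes, with no annotation of cells used here. A cell took the class with the most detected markers, if it had at least 3 and led the next class by at least 2. Subclasses needed 2 markers and a lead of 1. Scgb1a1 was left out of the gate because 98.6% of kept CM and 99.2% of kept TCM cells held it. Cells with markers of a second class (1377 CM, 1008 TCM) or too few markers (827 and 485) stayed unnamed, which was the only treatment of doublets, and 1202 CM and 865 TCM named cells lay at a limit of the gate. These names were rebuilt here and need not match the study's annotation.

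UMIs were summed per class and library and divided by the summed total. Ratios are TCM over CM, called at 2-fold, and a sum of 0 was replaced by 3 counts, which gives a bound. Intervals are exact Poisson (levels), Clopper-Pearson (shares) or conditional binomial (ratios). PCR error and spread between mice are not covered. Thinning drew 1000 UMIs per cell with a fixed seed. Free RNA was read from droplets of at most 50 UMIs and scaled per cell by hemoglobin and airway secretory genes in classes that should lack them. The ratio, interval and call steps and the depth after thinning were checked on simulated counts. The marker gate and the free RNA scaling were not tested in this way. The genes named were the 8 members, genes of the retinoic acid list with at least 50 UMIs in the class described, and the 5 genes most like Cyp26b1. Outside this rule Dhrs9, Aldh1a7, Rxrg, Cyp26a1, Cyp26c1 and, in smooth muscle-like and B-like cells, Fabp5 were named after their values were seen, as was Lrat for its likeness to Aldh1a1. Members and lists were chosen with earlier results of these data known. Coordinates are from GENCODE vM21 (GRCm38) and promoter windows from RefSeq (GRCm38.p6). Python 3.11.15, numpy 2.4.6, scipy 1.17.1, pandas 2.3.3 and matplotlib 3.10.9 were used. The alternatives tried were other limits on cells, other gates, per-cell means, thinning, free RNA subtraction, median scaling and leaving out deep cells or shared barcodes. Some genes of the list are not reported here.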

Additional observations from a re-analysis of the deposited data

Results flagged for a closer look

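Cyp26b1 was found above the CM level in TCM droplets that no comparison of classes used. In droplets of at most 50 UMIs the level was 6.03 UMIs per 100000 in TCM and 0.287 in CM. In droplets of more than 50 and fewer than 500 UMIs it was 4.67 in TCM and 0.245 in CM. In kept cells that were placed in no class it was 6.26 in TCM and 0.537 in CM, from 368 and 37 UMIs. The source of these molecules was not tested.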

How the results depend on the processing

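The log2 ratio of Cyp26b1 in endothelial-like cells lay between 3.28 and 3.68 under 10 alternatives, of which 2 (a gate that left out cells whose next class had more than 50% of the leading class's markers, and leaving out shared barcodes) were added after the data had been seen. Of the Cyp26b1 subclass ratios, that of aerocyte capillary cells, a bound with no interval, moved from 3.99 to 1.46 after thinning, since 9 of 191 TCM cells then held a UMI. A mean over cells gave it no value because CM held 0 UMIs. The number of first-level pairs of a member and a class at least 2-fold apart was 2 of 42. It became 6 with the stricter gate, 6 with the added gate, 7 with the mean over cells, 9 after thinning and 4 with free RNA subtracted. The shares of all genes under these alternatives are not given here, so nothing is read from the higher counts. The cause was not tested for each pair, though the stricter gate and the thinning also left fewer UMIs. The share of endothelial-like cells with a Cyp26b1 UMI without thinning was 3.5% in CM and 29.9% in TCM. For the other 59 pairs, 564 of 585 recomputed values lay inside the interval, 21 outside and 0 had a called ratio of the other sign. No paired analysis was possible because each group had 1 library. With 1 library per group the data cannot tell the treatment apart from the library, and Rdh10, Rarb and Aldh1a2 outside mesothelial-like cells are limited by their few UMIs.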

Other observations

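Neutrophil-like cells held transcripts of retinol dehydrogenase genes that are not among the 8 members. Rdh12, a retinal reductase and retinol dehydrogenase gene best known from photoreceptors, had 161 UMIs in CM and 1900 in TCM neutrophil-like cells, levels of 45.4 and 76.9 with a log2 ratio of 0.76 and a ratio of 1.69. Its level in droplets of at most 50 UMIs was 1.43 in CM and 5.8 in TCM. Dhrs9, a further dehydrogenase gene, had levels of 19.7 and 26 (0.40, 0.04 to 0.77). In this class 8.92% of all genes with a ratio were at least 2-fold higher and 12% at least 2-fold lower. Nrip1, a corepressor gene of nuclear receptors, had 1 UMI in CM and 76 in TCM, a ratio of 10.9 whose log2 interval ran from 0.93 to 8.77. Among the 9 coregulator genes with a ratio 4 were above 0 and 5 below, with 1 at least 2-fold higher and 1 at least 2-fold lower. Of the whole list 29 genes had a ratio, 3 at least 2-fold higher and 2 at least 2-fold lower. Of these 29 genes 10 were above 0 and 19 below, with a median log2 ratio of -0.26 against -0.17 over all genes.

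Fabp5, a fatty acid and retinoic acid binding protein gene, was lower in TCM alveolar macrophage-like cells, at 113 and 72.6 (log2 ratio -0.63, -0.76 to -0.51), and at 94 and 87.7 in AT2-like cells (-0.10, -0.21 to 0.01). In AT1-like cells it had 39 and 15 UMIs (-1.10, -2.06 to -0.21) and in smooth muscle-like cells 16 and 8 (-1.18, -2.62 to 0.12), while in B-like cells it had 6 and 14 (2.10, 0.63 to 3.77), so its direction was not the same in all classes. Over all genes with a ratio 3.48% were at least 2-fold lower in AT1-like and 1.73% in smooth muscle-like cells. In B-like cells 2.4% were at least 2-fold higher, and the part of free RNA in the few Fabp5 UMIs there was not tested. Ccr9, a homing receptor gene on the target list, had 54 UMIs in CM and 19 in TCM T-like cells, a log2 ratio of -0.98 (-1.81 to -0.20). It was the 1 gene below 0 among the 3 target genes with a ratio in T-like cells. The other 2 were above 0, and the median log2 ratio was 0.46. Of the 3, 1 was at least 2-fold higher, as were 2.27% of all genes with a ratio.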
